A study of Mus musculus with 30 samples.

Results

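The comparison described here is the step from day 1 to day 3 after doxycycline withdrawal in a mouse embryonic stem cell clone whose Nanog supply depends on the drug. It sets the 3 arrays of day 3 against the 3 arrays of day 1, which is 6 of the 30 arrays of the series, and reads 23385 probe sets across all genes. The clone, NgR in the labels with the genotype AINV15_Nanog_Rescue, came from embryonic stem cells that express rtTA, the doxycycline-activated transcription factor, and was kept on primary mouse embryonic fibroblasts. Before withdrawal the cells grew with doxycycline at 1 ug/ml, and day 0 was collected with the drug present. Day 1, day 3 and day 5 were collected that long after its removal. On each of these days doxycycline was also given as a 12 h pulse (groups with a plus sign before 12h Dox in their label). The groups with a minus sign there are read here as the cultures kept 12 h further without the pulse, which the labels do not spell out, and are called the 12 h controls. Every group had 3 arrays.

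All 10 groups came from the same clone, and arrays of cells kept in the drug to the later days were not analysed here. The time since withdrawal and the time in culture can therefore not be told apart. Nothing in the labels tells whether the 3 arrays of a group came from different cultures. The p-values thus cover only the spread between arrays, which may be technical.

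Nanog is a homeodomain transcription factor that, with Pou5f1 and Sox2, holds mouse embryonic stem cells in the naive state, the state of the epiblast before implantation. Rescue clones of this kind carry a hairpin RNA against the endogenous gene and a doxycycline-inducible copy, so that removal of the drug lowers Nanog. Cells that leave the naive state lose factors such as Klf4 and Zfp42, pass through a formative state marked by Fgf5 and Otx2, and can then enter germ layer or extraembryonic programmes.

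Each value is a log2 signal of 1 transcript cluster, the array's probe set for 1 transcription unit, so a difference of 1 is a 2-fold change. A cluster was called where the adjusted p of limma, with Benjamini-Hochberg correction across the 23385 clusters that carry a gene symbol, was under 0.05. "Rose" and "fell" are used below for called clusters. The gene lists below were chosen with earlier results of these data known, so their counts describe the members and are no independent support. Each count stands beside 13.2% called higher and 9.77% called lower over all clusters tested. The 6 arrays had medians of 7.53 to 7.61 and interquartile ranges of 2.44 to 2.61, and no 2 held identical values. The embryonic stem cell markers were high throughout: Pou5f1 lay at 12.23, 12.13 and 12.22 on day 1 and 11.66, 11.57 and 11.60 on day 3, and Sox2 at 12.12, 12.14 and 12.09 and then 12.12, 12.11 and 12.19.

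Between day 1 and day 3, 5362 clusters were called, which is 22.9% of those tested. Of these, 3077 were higher on day 3 (13.2% of clusters tested) and 2285 were lower (9.77%). With array weights 8789 clusters were called, 4293 of them lower. Most changes were small. The median size among called clusters was 0.37 on the log2 scale, and 109 called clusters changed at least 2-fold, 77 upward and 32 downward. The median change over all tested clusters was -0.0081. The split by direction depended on centring, since with each array centred on its median, 2315 clusters were higher and 3142 lower. Over all clusters whose groups did not overlap, called or not, there were 8804, or 37.6% of those tested.

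The largest rise was that of a gene of meiosis. Meiob, a single-strand DNA binding protein of meiotic recombination, lay at 4.61, 4.60 and 4.52 on day 1 and at 7.49, 7.85 and 6.91 on day 3, a rise of 2.85 (SE 0.24, limma adjusted p = 2.33e-09). Its day 1 values lie below the array medians, where RMA compresses differences, and whether they stood above background was not tested. Copz2, a subunit of the COPI vesicle coat, went from 7.66, 8.26 and 7.84 to 9.85, 10.09 and 9.96, a rise of 2.05. Car4, a membrane-anchored carbonic anhydrase, went from 8.67, 8.89 and 8.73 to 10.76, 10.74 and 10.67, a rise of 1.96. The 15 largest rises were taken from called clusters without overlap between the days. That every day 3 array of these 3 genes was above every day 1 array follows from this rule. The rest of the 15 largest rises were Olfr1372-ps1 (1.80), Krt18 (1.77), Got1l1 (1.72), Krt7 (1.68), Adgrl2 (1.65), Pmp22 (1.57), Zc3h6 (1.56), Prxl2a (1.52) and 4 microRNA clusters of the Mir302 family described below. Adgrl2 is an adhesion G protein-coupled receptor, read by 8 clusters that all rose (by 0.72 to 1.65), and Pmp22 is a tetraspan membrane protein.

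The largest fall was in a cluster of Vwa3b, a gene with a von Willebrand factor domain. It lay at 8.68, 8.83 and 8.62 on day 1 and 7.10, 7.32 and 6.87 on day 3 (-1.62, SE 0.15, limma adjusted p = 1.33e-08). Its 8 clusters ranged from -1.62 to -0.22, and the last was not called. Ccnd1, the G1 cyclin that partners CDK4 and CDK6, went from 10.23, 10.21 and 10.30 to 8.81, 8.55 and 8.63, a change of -1.58 (SE 0.08, limma adjusted p = 1.79e-13). Myc, a transcription factor of growth and ribosome production, went from 9.48, 9.31 and 9.47 to 8.15, 7.94 and 7.85, a change of -1.44. The 15 largest falls were taken from clusters without overlap too, so the days did not overlap in these 3 genes by that rule. The others among the 15 largest were Spink1 (-1.56), Hsd17b14 (-1.40), Gng3 (-1.38), Krt42 (-1.32), Mrpl20 (-1.24), Khdc3 (-1.23), Platr8 (-1.20), Crmp1 (-1.20), Znrd2 (-1.15), Phlda2 (-1.15), Enox1 (-1.12) and Nr0b1 (-1.11). Where a gene has several clusters, values elsewhere in the text are those of the cluster with the highest mean signal. Khdc3 belongs to the maternal complex of the egg cortex, Platr8 is a noncoding RNA linked to pluripotency, and Nr0b1 (Dax1) is an orphan nuclear receptor of the naive network.

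**Figure D1:**
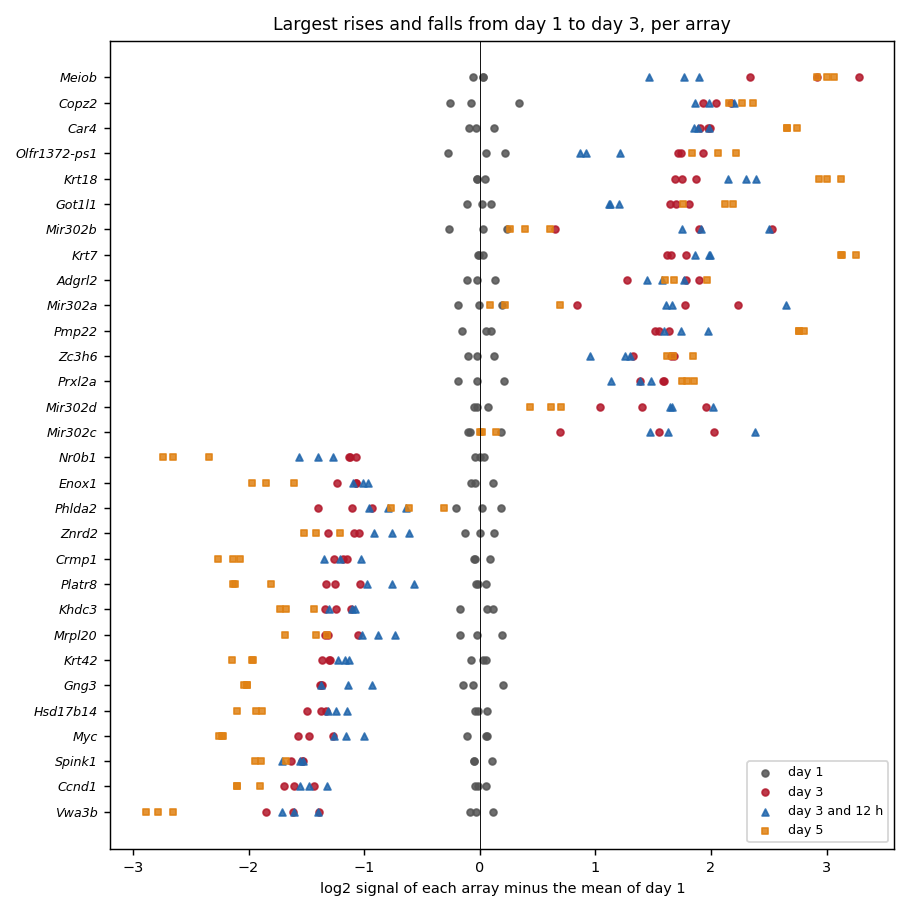
The 15 largest rises and 15 largest falls, drawn as the log2 signal of each array minus the gene's day 1 mean, for day 1 (grey circles), day 3 (red circles), day 3 and a further 12 h without drug (blue triangles) and day 5 (orange squares), 3 arrays each. Krt18 and Nr0b1 lay further from day 1 on day 5 than on day 3, while the means of the 4 Mir302 clusters were closer to day 1 on day 5 than on day 3.

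Nanog itself did not fall further at this step. Its arrays read 11.04, 11.05 and 11.01 on day 0, 10.32, 10.23 and 10.17 on day 1, 10.48, 10.48 and 10.57 on day 3 and 10.06, 9.86 and 9.64 on day 5. The change from day 0 to day 1 was -0.80 (limma adjusted p = 1.75e-07), the change at the step was 0.27 (SE 0.08, adjusted p = 0.0135), and the change to day 5 was -0.66 (adjusted p = 1.81e-06). All 3 day 3 arrays stood above all 3 day 1 arrays. The call was lost without day 1 replicate 3 (0.24, adjusted p = 0.0701), without day 3 replicate 3 (0.24, adjusted p = 0.0548) and with each array centred on its median (0.22, adjusted p = 0.0637). In the 12 h controls, which share no array with the step, Nanog read 10.28, 10.36 and 10.27 at day 1 and 10.12, 10.18 and 10.21 at day 3, a change of -0.14 that was not called (adjusted p = 0.346). Which copy of Nanog the probes read, the endogenous gene or the inducible one, was not tested.

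Naive pluripotency factors fell as a group. Of 23 measured, 12 fell and 1, Nanog, rose, and their median change was -0.28 against -0.0081 over all clusters. Nr0b1 went from 11.48, 11.43 and 11.51 to 10.40, 10.35 and 10.35 (-1.11, limma adjusted p = 5.28e-08). Klf4, a Krüppel-like factor that maintains the naive state, went from 8.75, 8.35 and 8.55 to 7.73, 7.75 and 7.89 (-0.76, adjusted p = 8.32e-07). Zfp42 (Rex1), the standard naive marker, went from 11.26, 11.51 and 11.28 to 10.83, 10.78 and 10.80 (-0.54). Neither gene overlapped between the days. Further falls were in Eras (-1.0), a constitutively active Ras of embryonic stem cells, Gbx2 (-0.82), a STAT3 target, Calcoco2 (-1.04), Jam2 (-0.49), Zfp57 (-0.50), which protects imprints, and Tcl1 (-0.44), an AKT coactivator. The orphan receptor Esrrb changed by -0.30 (adjusted p = 0.0431) and Klf2 by -0.28 (adjusted p = 0.00685). The Esrrb call was lost without any 1 of 5 of the 6 arrays (changes of -0.22 to -0.32, adjusted p = 0.0677 to 0.226, the exception being day 1 replicate 2). Klf2 lost its call without day 1 replicate 3 (-0.24, adjusted p = 0.0506). Tbx3 (0.15), Dppa3 (0.38), Tfcp2l1 (0.01) and Klf5 (-0.03) were not called.

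Among 22 factors shared by naive and later pluripotent cells, 8 fell and 1 rose. Pou5f1 (arrays above) changed by -0.58 (limma adjusted p = 1.84e-05), with no overlap between the days, while Sox2 changed by 0.02 (adjusted p = 0.91) and was not called. Dppa2 (-0.53), a chromatin factor of early embryos, Sall1 (-0.65), Foxd3 (-0.41), L1td1 (-0.32), an RNA-binding protein, Dnmt3l (-0.37), a cofactor of DNA methylation, Gdf3 (-0.28), a TGF-beta ligand, and Trim28 (-0.28), a corepressor of transposons, fell as well. The single rise was Epcam (0.33), an epithelial adhesion molecule.

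The formative and primed list split. Of 20 measured members, 2 rose and 9 fell. Fgf5, a ligand of the early postimplantation epiblast, went from 7.50, 7.59 and 7.63 to 8.46, 8.25 and 8.06 (0.68, SE 0.10, limma adjusted p = 2.28e-05) and read 7.34, 7.36 and 7.66 on day 5. Otx2, the homeodomain factor of the formative state, had most of its rise before day 1, reading 8.14, 8.36 and 8.01 on day 0 and 9.79, 9.76 and 9.72 on day 1. At the step it reached 10.12, 10.14 and 10.19 (0.39, adjusted p = 0.00877). The 9 that fell were the de novo DNA methyltransferases Dnmt3a (-1.02) and Dnmt3b (-0.48), the basic helix-loop-helix factor Tcf15 (-0.99), the ligand Fgf15 (-0.95), the kinase Pim2 (-0.87), and the factors Lef1 (-0.83), Etv4 (-0.81), Zic2 (-0.65) and Foxp1 (-0.51). Dnmt3a read 9.76, 9.73 and 9.60 on day 0, 10.17, 10.39 and 10.32 on day 1 and 9.30, 9.32 and 9.20 on day 3, so that the day 3 arrays were below both earlier days.

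**Figure D2:**
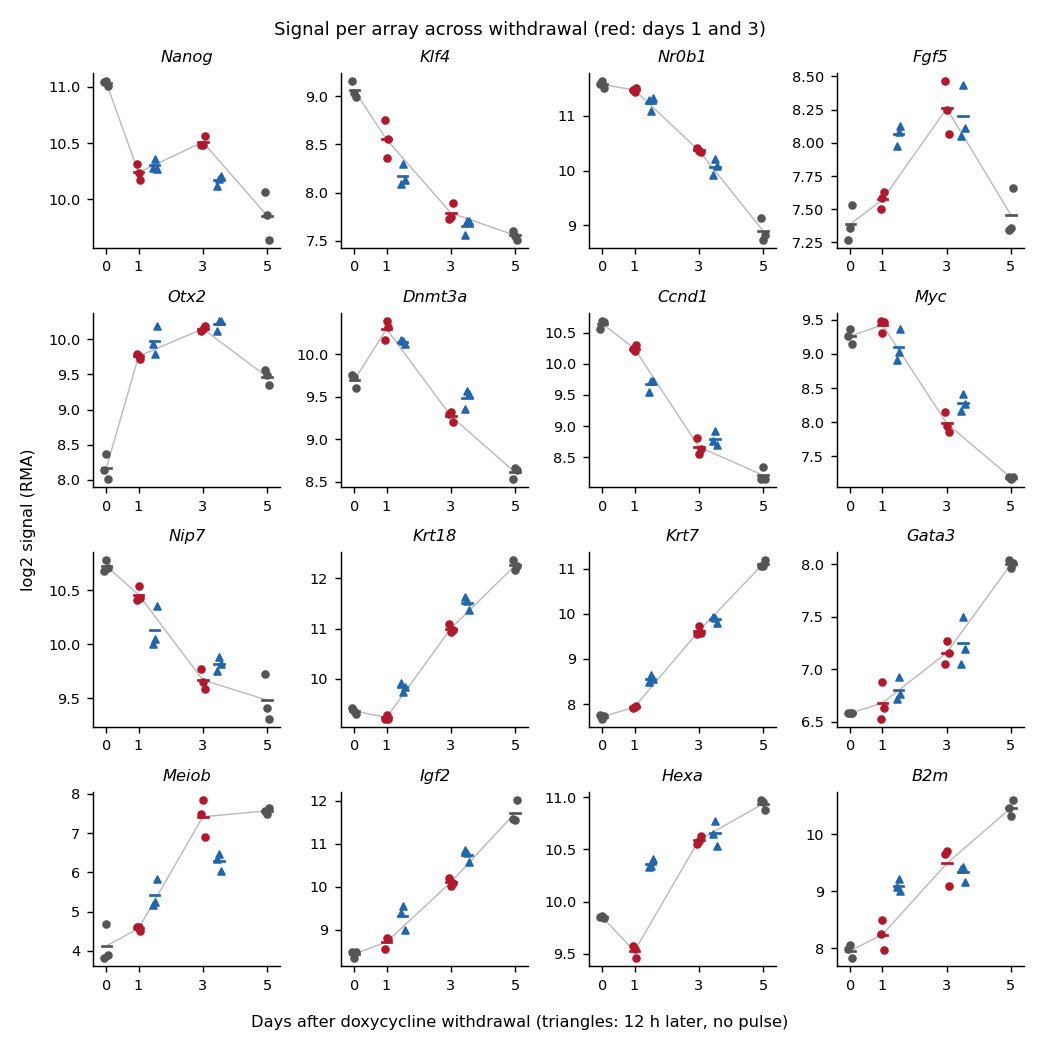
Log2 signal (vertical axes) of 16 genes in each array against days after withdrawal, with circles for day 0, 1, 3 and 5, blue triangles for the 12 h controls drawn 12 h after their day, and short bars for group means. Nanog was higher on day 3 than on day 1, Ccnd1 and Klf4 were lower, and Krt18, Krt7 and Igf2 rose from day 1 to day 3 and again to day 5.

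The called ligands and receptors of the pathways that act on embryonic stem cells went in both directions. In FGF signalling, which drives exit from the naive state through ERK, 3 of 17 ligands, receptors and adaptors rose and 2 fell. That is 29.4% called against 22.9% over all clusters tested, so the count lies near that share. Besides Fgf5 and Fgf15 (values above), the receptor Fgfr4 rose (0.31), and Fgf4 (-0.22), the main ligand of embryonic stem cells, was not called. Of 24 ERK feedback and immediate targets, 3 rose and 5 fell, which is 33.3% called. The falls were Ccnd1, Myc, Spry4 (-0.90), a feedback inhibitor, Etv4, and Egr1 (-0.66), an immediate early factor. Il17rd (0.40), another inhibitor, rose, and Dusp6 (0.04) and Etv5 (-0.08) were not called.

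In the Nodal and activin list, 5 of 20 rose and 4 fell (3 and 4 after centring on array medians). The ligand subunit Inhbb (-0.80) and the Nodal antagonist Lefty1 (-0.51) fell. The signal transducers Smad3 (0.32) and Smad4 (0.28) and the ligand-processing protease Furin (0.33) rose. Nodal itself (-0.06) was not called. In the 12 h controls none of the 20 was called higher and 3 were called lower. In the BMP list, 5 of 23 rose and 5 fell (3 higher and 7 lower after centring on array medians). The target genes Id1 (-0.43) and Id3 (-0.68), which inhibit differentiation factors, fell, and the receptor Bmpr2 (0.48) rose. In the 12 h controls 4 of the 23 were called higher and none lower. In the Wnt list, 5 of 30 rose and 5 fell, which is 33.3% called against 22.9% over all clusters tested. The nuclear mediator Lef1, the ligand-modifying enzymes Notum (-0.64) and Porcn (-0.49) and the receptor Fzd5 (-0.33) were lower, and the receptors Fzd7 (0.46), Fzd2 (0.35), Lrp5 (0.32) and Lrp6 (0.34) were higher. The target Axin2 (0.13) was not called.

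In the LIF and STAT3 list, 3 of 21 rose and 7 fell. Jak2, the kinase of cytokine receptors, went from 7.12, 7.31 and 7.14 to 8.36, 8.25 and 7.98 (1.01, limma adjusted p = 3.91e-06), and Jak1 (0.41) rose too. Myc, Gbx2, Klf4, Bcl3 (-0.49), Gfpt2 (-0.50) and Socs3 (-0.40), the feedback inhibitor, fell. The 2 receptor subunits were called in opposite directions, Lifr at -0.33 and Il6st at 0.29. The Lifr call was lost without day 1 replicate 2 or day 3 replicate 3 (-0.28 in both, adjusted p = 0.0657 and 0.0677), and the Il6st call without day 1 replicate 1 or 3 or day 3 replicate 1 or 2 (0.23 to 0.29, adjusted p = 0.0565 to 0.135) and after centring on array medians. Of 27 Notch, Hedgehog and retinoic acid genes, 5 rose and 8 fell. Notch3 (0.81) and Notch2 (0.51) rose, their ligands Dll1 (-0.42) and Dll3 (-0.35) fell, and so did the Hedgehog targets Gli1 (-0.48) and Ptch1 (-0.38) and the retinoic acid receptors Rarg (-0.58) and Rara (-0.41).

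Called genes of the list for YAP and TEAD, the transcription pair that reads cell shape and adhesion, moved 1 way at the step. The list holds targets and also the factors Tead1, Wwtr1 and Yap1 themselves. Of 18 measured, 10 rose and none fell (8 and none after centring on array medians). Ccn1 (Cyr61), a secreted matrix protein, rose by 0.82, Ptpn14 by 0.63, Ankrd1 by 0.62, Amotl2 by 0.54, Wwtr1 (TAZ) by 0.54 and Tead1 by 0.68. Yap1 (-0.01) and Ccn2 (0.00) were not called. In the 12 h controls 4 of the 18 were called higher and 3 lower.

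Simple epithelial and trophoblast genes rose together. Of 17 measured, 10 rose and 1 fell. Krt18, a keratin of simple epithelia and trophectoderm, read 9.21, 9.28 and 9.21 on day 1 and 11.10, 10.93 and 10.98 on day 3, a 3.4-fold rise (SE 0.07 on the log2 scale, limma adjusted p = 2.94e-15). Krt7 went from 7.92, 7.93 and 7.96 to 9.55, 9.72 and 9.59 (1.68, adjusted p = 3.84e-16) and Krt8, the partner of Krt18, from 9.94, 10.09 and 10.03 to 11.27, 11.14 and 11.11 (1.15). Krt8 had no overlap between the days, and Krt18 and Krt7 had none by the rule for the largest rises. Krt19 (0.97), Car4, Peg10 (0.71), a placental retrotransposon-derived gene, and Mal2 (0.51) rose too. The exception was Krt42, which went from 10.09, 9.99 and 10.12 to 8.70, 8.76 and 8.77 (-1.32, adjusted p = 6.3e-11). The labyrinth and spongiotrophoblast genes Syna (-0.11), Synb (-0.07), Tpbpa (0.07) and Psg17 (-0.07) were not called.

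Of 17 trophectoderm transcription factors, 4 rose and 1 fell (4 and 2 after centring on array medians). Gata3 went from 6.53, 6.88 and 6.63 to 7.05, 7.27 and 7.16 (0.48, limma adjusted p = 0.00271), and Ets2 (0.48) and Arid3a (0.35) rose. Cdx2, the factor that sets trophectoderm fate, read 7.30, 7.37 and 7.39 and then 7.56, 7.62 and 7.75 (0.29, adjusted p = 0.0231). Its call was lost without day 1 replicate 1 (0.26, adjusted p = 0.0872) and without day 3 replicate 3 (0.23, adjusted p = 0.108). Eomes (0.15), Elf5 (0.06) and Tead4 (0.12) were not called, and Tfap2c changed by -0.18 (adjusted p = 0.0447). The Tfap2c call was lost without day 1 replicate 1 or 3 and without day 3 replicate 1 or 3 (-0.14 to -0.19, adjusted p = 0.0781 to 0.171).

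Genes of cell contact and matrix rose with the keratins. Among 29 cadherin, junction and gap junction genes, 14 rose and 3 fell. The tight junction claudins Cldn6 (1.04), Cldn7 (0.88), Cldn4 (0.72) and Cldn3 (0.53), the desmosome genes Dsc2 (1.09), Dsp (0.74) and Dsg2 (0.57), occludin Ocln (0.61) and the epithelial splicing factor Esrp1 (0.47) rose. N-cadherin Cdh2 (-0.41), Cdh9 (-0.59) and the connexin Gjb5 (-0.36) fell, and E-cadherin Cdh1 (0.03) was not called. Of 17 basement membrane genes 9 rose and none fell, among them agrin Agrn (0.63), perlecan Hspg2 (0.59) and the laminin chains Lamb1 (0.51), Lamb2 (0.48) and Lama5 (0.33). Among fibroblast markers 9 of 29 were higher and 1 lower, which is 34.5% called against 22.9% over all clusters tested. Their median change was 0.02, and their part in the result was not tested.

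Of 25 integrin and focal adhesion genes 10 rose and none fell, led by the actopaxin Parva (0.80), the integrin chains Itgav (0.60) and Itga6 (0.46) and the kinase Ilk (0.55). Among 21 annexin, S100, galectin and fatty acid binding genes, 11 rose and 4 fell. Anxa3 (1.05), Anxa5 (0.94) and the small heat shock protein Cryab (0.97) rose, and Lgals3 (-0.69) and Lgals9 (-0.66) fell. After centring on array medians, the annexin list had 7 higher and 5 lower.

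None of 9 primitive endoderm transcription factors was called, with Gata6 at 0.22, Gata4 at 0.02 and Sox17 at -0.16. Of 22 extraembryonic endoderm markers 6 rose: the endocytic adaptor Dab2 (0.91), megalin Lrp2 (0.87), tissue factor F3 (0.81), Srgn (0.59), Clu (0.51) and Sparc (0.34). Afp (-0.06), Ttr (-0.21) and Apoa1 (-0.02) were not called. Of 22 primitive streak and mesoderm genes none rose and 2 fell, Meox1 (-0.40) and the ligand Bmp4 (-0.29). That is 9.09% called, against 22.9% over all clusters tested. The Meox1 call was lost without day 1 replicate 1 or day 3 replicate 2 or 3 (-0.24 to -0.39, adjusted p = 0.0571 to 0.237), and that of Bmp4 without day 1 replicate 1 or day 3 replicate 3 (-0.25 and -0.24, adjusted p = 0.0753 and 0.0709). Mixl1 (-0.02), Gsc (0.00) and Mesp1 (0.00) were not called.

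Of 27 neural genes 9 fell and none rose. Gng3, a neuronal G protein subunit, went from 9.48, 9.39 and 9.74 to 8.16, 8.17 and 8.15, and Tubb3, the neuronal beta tubulin, from 8.24, 8.21 and 8.30 to 7.0, 7.38 and 7.32 (-1.02, limma adjusted p = 2.37e-09). In Tubb3 the days did not overlap, and in Gng3 they did not by the rule for the largest falls. Neurod1 (-0.96), Ina (-0.86), Stmn2 (-0.61), Gap43 (-0.57) and Pax6 (-0.37) also fell, and the neural progenitor genes Sox1 (-0.17) and Nes (-0.14) were not called.

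**Figure D3:**
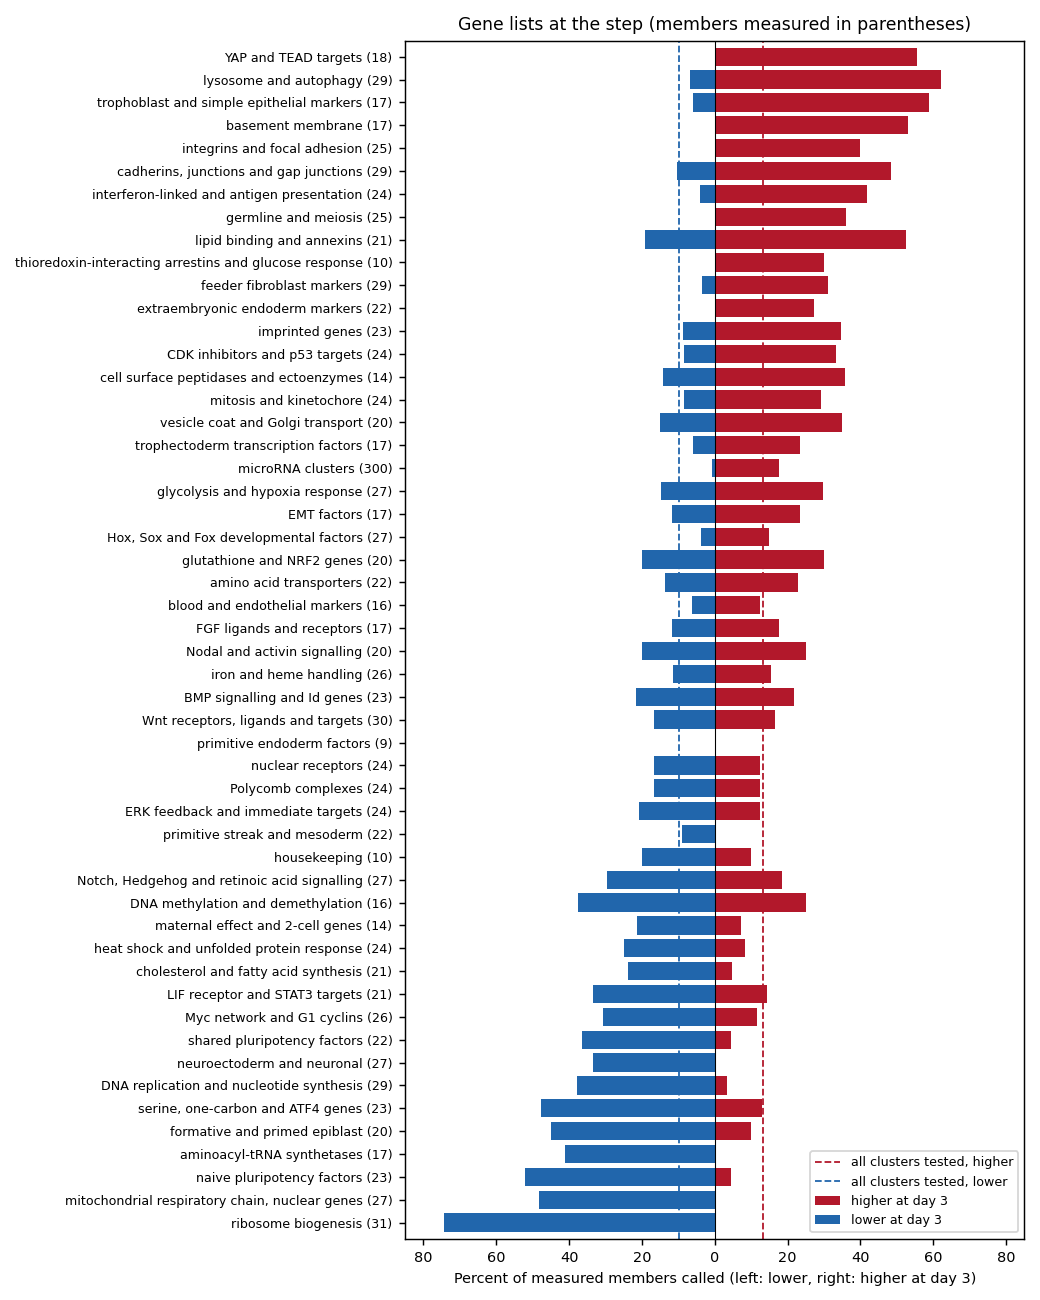
Percent of the measured members of each gene list called lower (blue, to the left) or higher (red, to the right) on day 3 than on day 1, with the share over all clusters tested as dashed lines at 9.77% and 13.2%. Ribosome biogenesis had 23 of 31 members lower and none higher, and lysosome and autophagy had 18 of 29 higher and 2 lower.

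Of 300 clusters named for 1 microRNA gene, 53 rose and 2 fell. Together these are 18.3% of the 300, against 22.9% called among all clusters tested and 13.2% called higher, and their median change was 0.06. After centring on array medians, 42 were higher and 12 lower. The family in front was Mir302 with Mir367, a polycistron of pluripotent cells that lies within the gene Larp7 on chromosome 3 (chr3:127545228-127545807, GRCm38.p6). MicroRNAs bind targets through bases 2 to 8, the seed, and members that share a seed share most targets. The arms of the called microRNAs held 78 seeds, of which 8 were shared by 2 or 3 clusters. The mature sequences printed come from the blocks described next, which hold several of the shared seeds. They come from RefSeq (GRCm38.p6), read 5′ to 3′, and carry the seed in capitals.

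miR-302b-3p (chr3:127545275-127545297, plus strand): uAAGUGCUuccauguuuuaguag
miR-302d-3p (chr3:127545665-127545687, plus strand): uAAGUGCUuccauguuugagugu
miR-302c-3p (chr3:127545406-127545427, plus strand): aAGUGCUUccauguuucagugg
miR-367-3p (chr3:127545779-127545800, plus strand): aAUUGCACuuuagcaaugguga
miR-106a-5p (chrX:52742541-52742563, minus strand): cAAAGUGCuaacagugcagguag
miR-20b-5p (chrX:52742159-52742181, minus strand): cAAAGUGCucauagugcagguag
miR-363-3p (chrX:52741697-52741718, minus strand): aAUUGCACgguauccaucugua
miR-92a-3p (Mir92-2, chrX:52741854-52741874, minus strand): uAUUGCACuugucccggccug
miR-15a-5p (chr14:61632075-61632096, minus strand): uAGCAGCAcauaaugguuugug
miR-15b-5p (chr3:69009775-69009796, plus strand): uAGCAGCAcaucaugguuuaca
miR-16-5p (Mir16-2, chr3:69009918-69009939, plus strand): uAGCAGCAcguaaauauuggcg

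The arms of Mir302b and Mir302d share the seed AAGUGCU. The Mir302c arm has AGUGCUU, and Mir106a and Mir20b have AAAGUGC, each of which overlaps AAGUGCU by 6 letters when shifted by 1 base. Mir367, Mir363 and Mir92-2 share AUUGCAC, although the first lies on chromosome 3 and the others on the X chromosome. Mir15a, Mir15b and Mir16-2 share AGCAGCA. Seeds were compared among called microRNAs only, so whether whole seed families rose was not tested. Mir16-1, the neighbour of Mir15a in its block, changed by 0.16 and was not called. The array target was made from total RNA, and whether a cluster's signal came from the primary transcript, the hairpin or the mature product was not tested.

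All 5 clusters of the Mir302 block rose. Mir302b lay at 4.31, 4.10 and 3.81 on day 1 and 6.60, 5.97 and 4.73 on day 3 (1.69, SE 0.30, limma adjusted p = 0.00015), and Mir302a at 4.36, 4.56 and 4.18 and 6.60, 6.14 and 5.21 (1.62, adjusted p = 0.000242). By the rule for the largest rises the days did not overlap. The day 3 arrays spread widely, with replicate 1 highest and replicate 3 lowest for both. Mir302c rose by 1.42, Mir302d by 1.47 and Mir367 by 0.96 (adjusted p = 0.0166). The Mir367 call was lost without day 3 replicate 1 (0.53, adjusted p = 0.205), without day 3 replicate 2 (0.91, adjusted p = 0.0605) and without day 1 replicate 1 (0.91, adjusted p = 0.062), and without day 3 replicate 3 its value was 1.44. The 2 clusters of Larp7, which spans the block, changed by 0.029 and 0.027 and were not called. On day 5 the block was lower again, with Mir302b at 4.33, 4.46 and 4.68 and Mir302c at 5.09, 4.95 and 4.97. The 12 h controls of day 1 already read 5.02, 5.44 and 5.54 for Mir302b and those of day 3 5.82, 6.58 and 5.98, a change of 0.79 that was not called (adjusted p = 0.106). There Mir302a (0.97) and Mir302d (0.78) rose and Mir302c (0.63, adjusted p = 0.0948) was not called.

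On the X chromosome (chrX:52741693-52742567, GRCm38.p6), 4 of 5 neighbouring clusters rose. Mir106a went from 6.17, 6.18 and 6.25 to 7.42, 7.65 and 7.07 (1.18, limma adjusted p = 4.85e-06), Mir363 from 6.63, 6.68 and 6.82 to 7.86, 7.67 and 7.54 (0.98), and Mir20b and Mir92-2 rose by 0.85 and 0.32. The Mir92-2 call was lost without day 1 replicate 1 or 3 or day 3 replicate 2 (0.29 to 0.30, adjusted p = 0.0511 to 0.0575). Of the 5 clusters of the related Mir17 block on chromosome 14 none rose and 1, Mir18, was called lower (-0.36). That call was lost without any 1 of 5 of the 6 arrays (-0.29 to -0.38, adjusted p = 0.0796 to 0.201, the exception being day 1 replicate 3) and with a replicate block (adjusted p = 0.0595). Mir15b rose by 1.28, Mir16-2 by 0.79 and Mir15a by 1.17. Smc4, the condensin gene whose span holds Mir15b and Mir16-2, rose by 0.31 (adjusted p = 0.00274), and Dleu2, whose span holds Mir15a, changed by 0.485 and was not called (adjusted p = 0.177).

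A further block lay in the imprinted Dlk1 and Meg3 region of chromosome 12 (chr12:109709060-109743496, GRCm38.p6), where 12 of 30 microRNA clusters rose and none fell. Their changes ranged from -0.14 to 1.13, with a median of 0.33. Mir300 rose by 1.13 and Mir382 by 0.80. The calls of Mir329, Mir376a, Mir376c, Mir377, Mir380, Mir381, Mir495 and Mir541 were each lost without at least 1 array. Without day 1 replicate 1, Mir380 changed by 0.36 (limma adjusted p = 0.239) and Mir541 by 0.43 (adjusted p = 0.127). Without day 3 replicate 2, Mir377 changed by 0.70 (adjusted p = 0.0512). In the other block of the region (chr12:109571990-109618336), 1 of 10 clusters, Mir665, was called higher (0.25), and the median was 0.07. Its call was lost without day 1 replicate 1 (0.21, adjusted p = 0.051). The maternally expressed noncoding RNAs of the region rose with them, Meg3 by 0.65 (limma adjusted p = 2.5e-06) and Rian by 0.53 (adjusted p = 0.00125), whereas the paternally expressed Dlk1 (-0.15) and Rtl1 (-0.02) were not called.

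**Figure D4:**
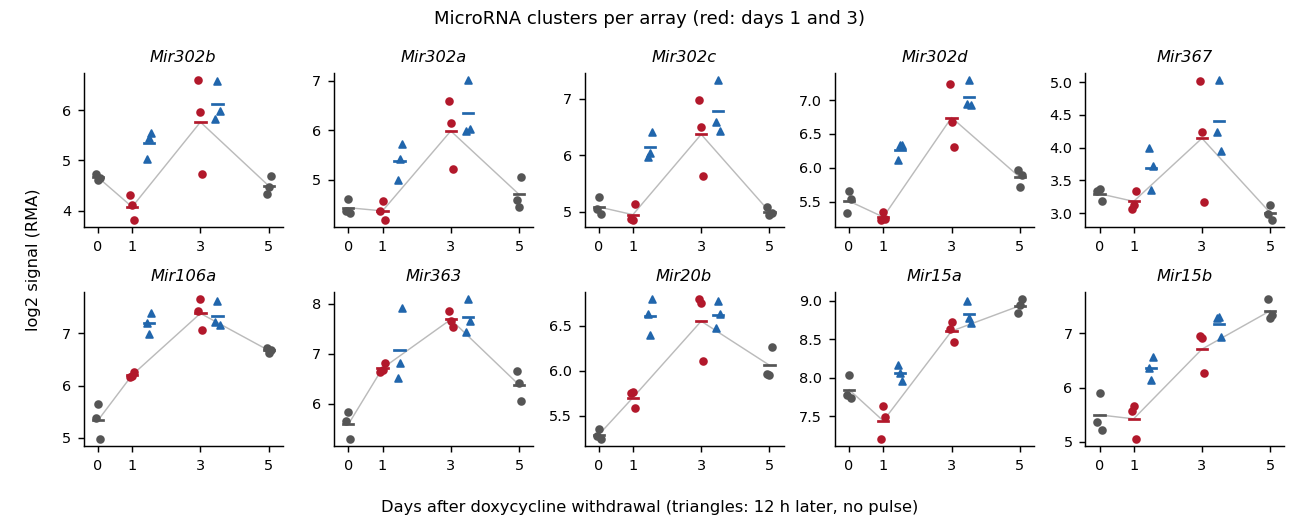
Log2 signal (vertical axes) of 10 microRNA clusters in each array against days after withdrawal, with circles for day 0, 1, 3 and 5, triangles for the 12 h controls and short bars for group means. The Mir302 clusters were highest on day 3 and in the 12 h controls after it, and were lower again on day 5.

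Imprinted genes, which are expressed from 1 parental allele, rose more often than they fell. Of 23 measured, 8 rose and 2 fell. Igf2, a fetal growth factor, went from 8.55, 8.80 and 8.79 to 10.21, 10.01 and 10.09 (1.39, limma adjusted p = 2.12e-09), Sgce rose by 1.29, its neighbour Peg10 by 0.71, Igf2r by 0.80, Peg3 by 0.58 and Zim1 by 0.53. The growth restrainers Phlda2 (-1.15) and Cdkn1c (-0.38) fell. Every day 3 array of Igf2 exceeded every day 1 array. Among 16 DNA methylation genes, 4 rose and 6 fell (2 and 6 after centring on array medians). Gadd45b, a stress gene linked to demethylation, rose by 1.33, Dnmt3a, Dnmt3b and their cofactor Dnmt3l (-0.37) fell, and Gadd45g (-0.59) and Tet2 (-0.35) fell.

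Germline and meiosis genes rose without any fall: 9 of 25. Besides Meiob these were the meiotic cohesin subunits Smc1b, which went from 6.95, 7.39 and 7.01 to 8.35, 8.72 and 8.29 (1.34, limma adjusted p = 1.09e-07), and Rec8 (0.36), the germ cell specifier Prdm1 (0.75), the piRNA helicase Mov10l1 (0.72), Sohlh2 (0.71), Tdrd12 (0.57) and the synaptonemal proteins Sycp2 (0.28) and Sycp3 (0.38). The Sycp3 call was lost without day 3 replicate 2 (0.28, adjusted p = 0.0755), and that of Sycp2 without day 1 replicate 2 or day 3 replicate 2 (0.24 and 0.25, adjusted p = 0.0688 and 0.0741). Dazl (0.28), Ddx4 (0.13), Stra8 (0.06) and Sycp1 (0.02) were not called.

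Many germline promoters carry an E-box, CACGTG, bound by the MGA and MAX repressor complex in embryonic stem cells. The motif reads the same on both strands. It was found in the 250 bases before the start of 1854 of 27025 genes in the RefSeq promoter table (6.86%) and of 10 of the 23 germline genes that the table holds. Of the 8 germline genes in the table that rose, 2 held it, Mov10l1 and Sycp3, against 8 of the 15 that were not called. The Sycp3 window, which holds it at 2 places, is printed to show the motif in capitals.

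Sycp3 (GRCm38.p6, chr10:88459337-88459586, plus strand): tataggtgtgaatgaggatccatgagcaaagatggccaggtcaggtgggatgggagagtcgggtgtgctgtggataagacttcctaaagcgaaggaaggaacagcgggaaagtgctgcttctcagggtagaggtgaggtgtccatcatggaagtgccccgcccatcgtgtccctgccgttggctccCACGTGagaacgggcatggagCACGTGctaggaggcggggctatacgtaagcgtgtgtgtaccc

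Genes of growth and protein synthesis fell. Ribosome biogenesis had the largest share, with 23 of 31 members lower and none higher, a median of -0.28 (26 lower after centring on array medians). Its members are bright, with a median day 1 signal of 11.13, and bright clusters were called more often. With clusters cut into 4 groups by mean signal, 1317 of the 5846 brightest were lower and 995 higher. Of the 5847 dimmest, 122 were lower and 217 higher. Nip7, a factor of the large ribosomal subunit, went from 10.41, 10.54 and 10.43 to 9.77, 9.65 and 9.59 (-0.79, limma adjusted p = 8.03e-07), with no overlap. Bop1 (-0.70), Rrp9 (-0.69), Nolc1 (-0.64), Rrp12 (-0.60), the RNA polymerase I subunit Polr1b (-0.50) and its activator Ubtf (-0.48) fell as well. Npm1 (0.01) and Ncl (-0.09) were not called. Of 17 aminoacyl-tRNA synthetases 7 fell and none rose, including Tars (-0.50), Wars (-0.44) and Hars (-0.43).

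In the Myc network and G1 list 8 of 26 fell and 3 rose. With Ccnd1 and Myc, Ccne1 (-0.63), Mycn (-0.54) and Cdk2 (-0.38) fell, and the pocket proteins that restrain E2F, Rb1 (0.84), Rbl1 (0.42) and Rbl2 (0.26), were the 3 that rose. The Rbl2 call was lost without day 1 replicate 1 or 3 or day 3 replicate 2 or 3 (0.21 to 0.26, adjusted p = 0.0786 to 0.193) and after centring on array medians. Rb1 went from 7.71, 7.80 and 7.88 to 8.69, 8.83 and 8.39, without overlap. Of 29 replication and nucleotide synthesis genes, 11 fell and 1, Mcm7 (0.20), was called higher. After centring on array medians none was higher and 14 were lower, and the Mcm7 call was also lost without day 1 replicate 1 or day 3 replicate 1 or 2 (0.14 to 0.20, adjusted p = 0.0817 to 0.203). Tyms (-0.66), Tk1 (-0.34) and Rrm2 (-0.48), which make deoxynucleotides, and the helicase subunits Mcm2 (-0.45) and Mcm5 (-0.38) fell. In the 12 h controls 2 of the 29 replication and nucleotide synthesis genes were called lower and 1 higher. Of 24 mitotic genes 7 rose and 2 fell (4 and 3 after centring on array medians). Prc1 (0.38), Cenpf (0.37) and Mki67 (0.36) rose and the survivin gene Birc5 (-0.39) fell. Of 24 CDK inhibitor and p53 target genes 8 rose and 2 fell (5 and 3 after centring on array medians). Polk (0.63), Trp53inp1 (0.56), Ccng1 (0.41) and Mdm2 (0.36) rose, and Cdkn1b (0.24) was not called.

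Nuclear genes of the mitochondrial respiratory chain fell in 13 of 27 cases, and none rose, with a median of -0.18. After quantile normalization 10 were lower, with a median of -0.10. In the 12 h controls 2 of the 27 were called lower and 1 higher. Members of this list are bright too, with a median day 1 signal of 11.06. Ndufa1 (-0.68), Sdhd (-0.38) and Cox4i1 (-0.36), subunits of complexes I, II and IV, and the carrier Cycs (-0.47) fell. Of 23 serine, one-carbon and ATF4 genes, 11 fell and 3 rose. The mitochondrial folate enzymes Shmt2 (-0.62) and Mthfd2 (-0.61) and the serine synthesis enzyme Psat1 (-0.31) fell, and the asparagine synthetase Asns (0.36) rose.

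Lysosome and autophagy genes rose in 18 of 29 cases and fell in 2 (13 and 2 after centring on array medians). Hexa, a hexosaminidase that degrades gangliosides, went from 9.57, 9.55 and 9.46 to 10.55, 10.58 and 10.62 (1.06, limma adjusted p = 2.46e-11), with the days apart. Lamp2 (0.95), Psap (0.52), Npc1 (0.43) and the cathepsins Ctsb (0.42) and Ctsa (0.38) rose, while the lysosomal transcription factors Tfeb (-0.34) and Tfe3 (-0.27) were the 2 that fell. The Tfe3 call was lost without day 1 replicate 1 or 3 or day 3 replicate 2 or 3 (-0.20 to -0.28, adjusted p = 0.0639 to 0.151). Among 20 vesicle coat and Golgi genes 7 rose and 3 fell. Copz2 rose most. Kdelr3 (0.66), Creb3l2 (0.57) and Copg2 (0.53) rose.

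Antigen presentation genes rose in 10 of 24 cases and fell in 1 (9 and 2 after centring on array medians). B2m, the light chain of MHC class I, read 8.26, 8.50 and 7.98 on day 1 and 9.66, 9.72 and 9.10 on day 3 (1.25, limma adjusted p = 2.58e-07). The peptide transporter genes Tap1 (0.67) and Tap2 (0.52), Tapbp (0.38), Psmb8 (0.51) and Stat2 (0.61) rose, Psmb10 (-0.35) fell, and the interferon-induced Ifit1 (-0.10), Irf7 (0.05) and Rsad2 (0.01) were not called. The Psmb10 call was lost without day 1 replicate 3 (-0.28, adjusted p = 0.0512). Txnip, the arrestin that restrains glucose uptake, went from 11.10, 11.09 and 11.06 to 12.20, 12.33 and 12.25 (1.18, adjusted p = 1.33e-11), and Arrdc4 rose by 0.53. Of 14 genes listed under cell surface peptidases and ectoenzymes 5 rose and 2 fell, with Car4 held by the trophoblast list as well. App, the amyloid precursor, went from 8.25, 8.28 and 8.24 to 9.63, 9.60 and 9.32 (1.26), and Vnn1 (0.94), a pantetheinase, and Mme (0.86), neprilysin, rose with Car4, while Dpp4 (-0.67) fell.

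The 12 h controls, 6 arrays collected 12 h after day 1 and day 3 without the drug, gave a step of the same length that lies 12 h later. There 2343 clusters were called, 10.0% of those tested, 1309 higher and 1034 lower. Of the step's 5362 called clusters, 4663 (87.0%) had the same sign in the controls, and 1544 were called in both, 1508 in the same direction and 36 in opposite ones. The 1544 are 28.8% of the calls at the step and 65.9% of those in the controls. Of the 109 clusters with at least a 2-fold change, 107 had the same sign and 81 were called there in that direction. Across the 23385 clusters the 2 sets of changes had a Pearson r of 0.632 and a Spearman rho of 0.549, a description over genes that share arrays. The controls' count rested in part on single arrays, since it was 1470 without day 1 control replicate 2 and 1390 without day 3 control replicate 1. In a fit of those 6 arrays alone it was 791. The 4 arrays of the series with the widest interquartile ranges were all 12 h controls, and without them the step had 6310 calls and the controls 2224.

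**Figure D5:**
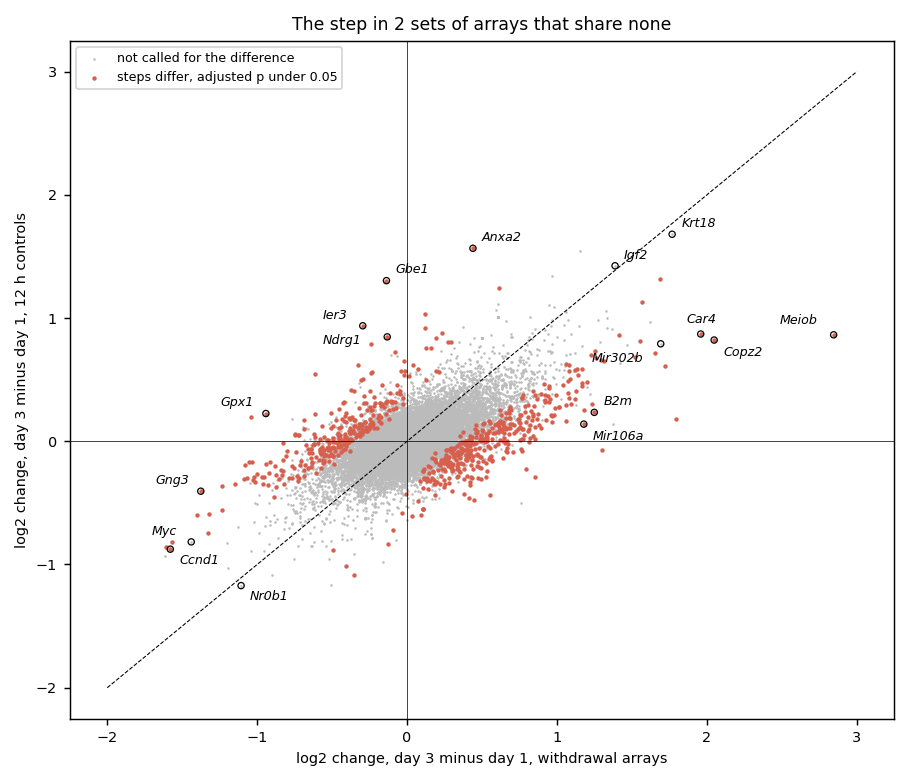
Log2 change from day 1 to day 3 in the withdrawal arrays (horizontal axis) and in the 12 h controls (vertical axis) for 23385 clusters, with the 671 whose changes differed at an adjusted p under 0.05 in red and the line of equality dashed. Krt18, Igf2 and Nr0b1 lie close to the line, Meiob, Copz2 and B2m below it, and Gbe1, Anxa2 and Ndrg1 above it.

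The changes of the 2 sets, whose intervals lie 12 h apart, were compared directly. Their difference equals the 12 h change after day 1 minus the 12 h change after day 3. Between day 1 and its 12 h controls 1462 clusters were called, and between day 3 and its 12 h controls 396. The step differed from that of the 12 h controls in 671 clusters, 2.87% of those tested, 382 with a higher value in the withdrawal arrays and 289 with a lower one (198 and 300 after centring on array medians). Krt18 changed by 1.77 at the step and 1.68 in the controls (difference 0.09, limma adjusted p = 0.829), Nr0b1 by -1.11 and -1.17 (difference 0.06, adjusted p = 0.933) and Krt7 by 1.68 and 1.31 (difference 0.37, adjusted p = 0.0208). Meiob rose by 2.85 and 0.86 (difference 1.98, adjusted p = 0.00127). Its controls had already reached 5.17, 5.26 and 5.84 at day 1 and 12 h and stood at 6.34, 6.47 and 6.04 at day 3 and 12 h. Hexa likewise read 10.33, 10.34 and 10.40 in the day 1 controls, above the day 1 arrays, and 10.65, 10.78 and 10.54 in the day 3 controls.

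Other genes changed more in the controls than at the step. Of 27 glycolysis and hypoxia response genes, 20 rose in the controls and none fell, while at the step 8 rose and 4 fell. Ndrg1, a hypoxia-induced gene, read 8.69, 8.73 and 8.64 on day 1, 8.57, 8.57 and 8.52 on day 3, 8.66, 8.66 and 8.61 in the day 1 controls and 9.51, 9.49 and 9.47 in the day 3 controls (difference of the steps -0.98, limma adjusted p = 4.19e-06). The glycogen genes Gbe1 (-0.14 against 1.30) and Gys1 (-0.24 against 0.79) and the immediate early gene Ier3 (-0.30 against 0.94) differed in the same direction. Anxa2 rose in both (0.44 against 1.57) and Gpx1, a glutathione peroxidase, fell at the step alone (-0.94 against 0.23, adjusted p of the difference 3.34e-05). The count of 671 moved with single arrays: it was 389 without day 1 replicate 1, 409 without day 1 replicate 3, 432 without day 3 replicate 1, 320 without day 3 replicate 2, 414 without day 1 control replicate 2 and 343 without day 3 control replicate 3.

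The step was set against the next one, from day 3 to day 5. The difference was called in 831 clusters, 3.55% of those tested, 503 with a higher value at the first step and 328 with a lower one (315 and 363 after centring on array medians). The day 3 arrays enter both steps with opposite signs, so a day 3 array that reads high or low counts toward both. The count was 226 without day 3 replicate 2 and 372 without day 3 replicate 1. The microRNAs of the Mir302 block and Mir363 and Mir106a were among the 10 highest. They rose and then fell, Mir302b by 1.69 and then -1.27, Mir302a by 1.62 and then -1.28. Slc40a1, the iron exporter ferroportin, rose by 1.41 and then changed by -0.48 (difference 1.89, limma adjusted p = 1.2e-08), Fgf5 by 0.68 and then -0.80, and Otx2 by 0.39 and then -0.69. Meiob rose by 2.85 and then changed by 0.15 (adjusted p = 0.826), which was not called.

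Among the largest differences in the other direction were genes that fell at the step. Cdkn1c, a CDK inhibitor, read 9.82, 9.76 and 9.86 on day 1, 9.51, 9.36 and 9.42 on day 3 and 10.47, 10.46 and 10.90 on day 5 (difference -1.56, limma adjusted p = 1.32e-05). Crabp2, a retinoic acid carrier, changed by -0.53 at the step and then rose by 0.85. Phlda2 changed by -1.15 and then 0.58, and Hmox1, the heme-degrading oxygenase, by -1.08 and then 0.15 (adjusted p = 0.53). The keratins kept rising, with Krt18 at 1.77 and then 1.25 and Krt7 at 1.68 and then 1.49 (difference 0.20, adjusted p = 0.421).

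The step was also read between cultures that received doxycycline for their last 12 h. The change from day 1 to day 3 between pulsed arrays differed from that between 12 h controls in 2 clusters, 0.00855% of those tested, while 1541 had an unadjusted p under 0.05. These 2 were Mras, a Ras-related GTPase (-0.92, limma adjusted p = 6.67e-05), and Tubb3 (-0.74, adjusted p = 0.0207). Mras read 8.49, 8.44 and 8.41 in the pulsed arrays of day 1 and 7.36, 7.42 and 7.35 in those of day 3, against 7.34, 7.46 and 7.4 and 7.38, 7.15 and 7.20 in the controls. With array weights, 1142 clusters were called for this contrast, so the count depends on how arrays are weighted.

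Markers of other cells and properties of the genes were also read at the step. The 29 fibroblast markers are those of the cell type of the feeder layer. Their mean log2 signal ran from 7.24 to 7.25 on day 1 and from 7.35 to 7.42 on day 3, and their median change was 0.02. At the step 9 were higher and 1 lower, which is 34.5% called against 22.9% over all clusters tested. In the 12 h controls 5 were called higher and none lower. The rises included Tagln (0.86), Acta2 (0.76), Thbs1 (0.87), Col1a2 (0.36) and Fn1 (0.32), while Col1a1 (0.08), Col3a1 (0.11), Dcn (-0.13), Lum (-0.25), Thy1 (-0.12) and Prrx1 (-0.09) were not called. Of 16 blood and endothelial markers 2 rose and 1 fell, which is 18.8% called against 22.9% over all clusters tested. Their means were 6.91 to 6.97 on day 1 and 6.87 to 6.96 on day 3, and Ptprc (0.02) was not called. In bulk samples, fewer cells of a type and less RNA per cell cannot be told apart. Gene length went with direction. Of the 5422 clusters with the longest genomic span, when clusters were ranked by span and cut into 4 groups, 1236 were higher and 258 lower, whereas of the 5423 with the shortest span 300 were higher and 571 lower. The part of gene span or of mean signal in the results was not tested.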

How the data were processed

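Total RNA was extracted with Trizol and RNeasy columns, labelled with a whole-transcript cDNA kit and read on Affymetrix Mouse Gene 1.0 ST arrays, per the labels' protocols. The deposited values are log2 signals, which, per the submitters' processing notes, the authors computed by RMA using Affymetrix Expression Console. The software version and genome build are not given in the sources used here. RMA corrects background, equalises array distributions and summarises probes, so shifts shared by most genes are removed. For arrays, their number limits the precision.

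Clusters were named from the platform annotation: of 28815, 21780 had 1 symbol, 1605 several and 5430 none, and 21689 of the 21780 matched RefSeq by gene ID. The 23385 clusters with a symbol were tested with limma 3.58.1 in R 4.3.3 on all 30 arrays, with 1 mean per group, default moderation and Benjamini-Hochberg adjustment. The contrasts were day 3 minus day 1, the same between 12 h controls and between pulsed arrays, and differences of these steps. The fit was tested on simulated data. Array columns left out numbered 0.

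The 52 gene lists and the members were chosen with earlier results of these data known. Genes named were Nanog, the 15 largest called rises and falls without overlap, up to 8 called members of each list, and 10 per direction of each difference; further members were named after their values were seen. MicroRNA and promoter sequences and positions are from RefSeq tables (GRCm38.p6), with microRNA genes within 50 kb joined into blocks. Alternatives covered centring, scaling, filters, weights, covariates, the arrays fitted, the size of the change and leaving out arrays. Near-identical copies, such as microRNA paralogues, may share probes.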

Additional observations from a re-analysis of the deposited data

Results flagged for a closer look

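The results here are differences between steps that were tested directly with limma in the fit of all arrays. Groups had 3 arrays, too few to look for single outlying arrays within a group.

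The step from day 1 to day 3 differed between the withdrawal arrays and the 12 h controls, whose interval lies 12 h later, in 671 clusters. The largest positive differences, with a higher value in the withdrawal arrays, were Meiob (1.98), Olfr1372-ps1 (1.61), Tspan2 (1.37), Copz2 (1.23), Car13 (1.14), Got1l1 (1.10), Car4 (1.09), Mir106a (1.04), Micu3 (1.02) and B2m (1.01). In B2m the controls of day 1 already read 9.07, 9.22 and 9.01, above the day 1 arrays at 8.26, 8.50 and 7.98. The largest negative differences were Gbe1 (-1.44), Zfp428 (-1.23), Ier3 (-1.23), Gpx1 (-1.17), Higd1a (-1.16), Anxa2 (-1.13), Gys1 (-1.03), Ndrg1 (-0.98), Gng3 (-0.97) and Cyp2s1 (-0.94). Anxa2, a calcium-dependent membrane binder, read 8.91, 9.10 and 9.50 and then 10.76, 10.76 and 10.69 in the controls. Gng3 changed by -1.38 at the step and by -0.41 in the controls.

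The step differed from the following one, from day 3 to day 5, in 831 clusters, a contrast in which the day 3 arrays count with both steps. The largest positive differences were Mir302b (2.96), Mir302a (2.90), Mir302c (2.79), Meiob (2.69), Mir302d (2.35), Mir363 (2.29), Mir367 (2.10), Ppp4r4 (1.92), Slc40a1 (1.89) and Mir106a (1.89). The largest negative ones were Phlda2 (-1.73), H2bc4 (-1.62), Cdkn1c (-1.56), Calcoco2 (-1.41), Crabp2 (-1.37), Spink1 (-1.29), Gpx1 (-1.28), Emp1 (-1.28), Cltb (-1.24) and Hmox1 (-1.23). H2bc4, a histone gene, read 7.79, 7.60 and 7.16 on day 1, 7.13, 6.80 and 7.05 on day 3 and 8.46, 8.06 and 7.77 on day 5.

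The step between pulsed arrays differed from that between 12 h controls in 2 clusters, those of Mras (-0.92) and Tubb3 (-0.74). Tubb3 read 8.34, 8.44 and 8.50 in the pulsed arrays of day 1 and 7.45, 7.50 and 7.25 in those of day 3.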

How the results depend on the processing

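Of 523 clusters tried (those named by rule and every called list member), 514 were called. All 514 kept their direction in every alternative run that judged them. Of these, 413 kept their call in every such run that left out no single array, and 149 lost it without at least 1 array. The 2-fold minimum was not applied to single clusters here, and runs that left out clusters judged only those that stayed. The count of 5362 at the step was 8789 with array weights (4293 lower) and 109 with a 2-fold minimum (77 higher, 32 lower). The count for the 12 h controls was 4878 with array weights, 791 in a fit of the compared arrays alone, 38 with a 2-fold minimum and 4066 with the interquartile range as a covariate. For the step minus that of the controls, the corresponding counts were 3181, 264, 17 and 1748, with 1223 after quantile normalization and 1015 without the dimmest 40% of clusters. For the step minus the next, they were 3559 with array weights, 100 with a 2-fold minimum, 2124 with the covariate, 1561 after quantile normalization and 1410 without the 4 arrays of widest interquartile range. For the pulsed step minus that of the controls, they were 1142 with array weights, 1 in the compared arrays alone, 0 with a 2-fold minimum in limma, 61 with the covariate, 21 after quantile normalization, 10 without the dimmest clusters and 12 with trend and robust moderation. Fewer clusters tested, fewer arrays or a size limit change counts by construction, and the cause of the other changes was not tested. Leaving out 1 array at a time gave 4016 to 5196 calls at the step, 1390 to 2412 in the controls, 320 to 794 and 226 to 829 for the differences from the controls and from the next step, and 1 to 3 for the pulse. Whether replicate numbers pair the arrays was not settled. Deviations from group means of same-numbered arrays of day 1 and day 3 correlated at -0.10, 0.32 and 0.10. Those of the 12 h controls correlated at 0.32, 0.02 and -0.30. A replicate block gave 5259 calls at the step, 2293 in the controls, 605 and 791 for the differences, and 3 for the pulse. Low-signal clusters, such as the microRNA genes, lie near the array background, where RMA compresses differences.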

Other observations

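In iron and heme handling 4 of 26 rose and 3 fell, which is 26.9% called against 22.9% over all clusters tested. Slc40a1, the iron exporter, went from 9.42, 9.46 and 9.52 to 10.89, 10.93 and 10.81 (1.41, limma adjusted p = 3.99e-12), the metal importer Slc39a8 rose by 0.77, and Hmox1, which opens the heme ring, went from 10.36, 9.99 and 10.12 to 9.10, 9.06 and 9.07 (-1.08). The transferrin receptor Tfrc (-0.17) was not called. Among 20 glutathione and NRF2 genes 6 rose and 4 fell. Gpx1 (-0.94), Nqo1 (-0.64) and Sod2 (-0.62) fell, and Gstm1 (0.58), Gpx2 (0.55) and catalase Cat (0.36) rose. Of 24 heat shock and unfolded protein genes 2 rose and 6 fell (1 and 7 after centring on array medians), with Hsph1 (-0.55) and Dnajb11 (-0.36) lower. In cholesterol and fatty acid synthesis 5 of 21 fell, Acly (-0.32) among them, and 1 rose (none after centring on array medians). Of 22 amino acid transporters 5 rose and 3 fell (3 and 6 after centring on array medians), with Slc7a3 (-0.68) and Slc7a7 (-0.39) lower and Slc1a1 (0.45) and Slc1a4 (0.40) higher.

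Of 24 Polycomb genes 3 rose and 4 fell, with Ezh1 (0.35) and Suz12 (0.30) higher and L3mbtl2 (-0.49), Eed (-0.42) and Jarid2 (-0.29) lower. Of 27 Hox, Sox and Fox factors 4 rose and 1 fell (2 and 2 after centring on array medians), led by Meis1 (0.61), a Hox partner. Of 24 nuclear receptors 3 rose and 4 fell, with Nr6a1 (0.31), a repressor of Pou5f1, higher and Nr2f6 (-0.32) lower. The shares called were 29.2% for Polycomb, 18.5% for Hox, Sox and Fox and 29.2% for nuclear receptors. Over all clusters tested it was 22.9%, so these counts lie near that share. Of 17 factors of epithelial to mesenchymal transition 4 rose and 2 fell: Mmp2 (0.54) rose, and vimentin Vim (-0.42) and Cdh2 (-0.41) fell. Of 14 maternal effect and 2-cell genes 1, Obox6, rose (0.80) and 3 fell, Khdc3 (-1.23) among them. Of 10 housekeeping genes 1, B2m, rose and 2 fell, Tbp (-0.29) among them.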
